A study of Mus musculus with 4 samples.

Results

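Germline genes, which are normally used in developing eggs and sperm, were examined in naive mouse embryonic stem cells with less or more of the long noncoding RNA Lncenc1. The set holds 41 genes: 16 of the piRNA pathway, 17 that build or process meiotic chromosomes, and 8 other germline genes. They were listed by name as a module, chosen by germline function with the deposited fold changes and adjusted p-values of this same comparison in view. All 41 were found by symbol among the 19840 genes of the deposited table. Of them 35 had an adjusted p there, and the other 6, with a mean of at most 5.05 normalized reads, were not tested. Because the choice drew on the comparison itself, the counts below are descriptions of these members and not independent evidence for a direction.

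PIWI-interacting RNAs (piRNAs) are small RNAs that guide PIWI proteins to transposon transcripts in the germline, where helicases, tudor-domain scaffold proteins and mitochondrial surface enzymes assist in making and loading them. In meiosis, cohesin and axial element proteins organise each chromosome, the synaptonemal complex joins homologous chromosomes, and recombination proteins make and repair DNA breaks. In embryonic stem cells many of these genes are kept at a low level by promoter DNA methylation and by the PRC1.6 repressor complex, which contains E2F6, MGA and MAX, and the 2i culture medium is known to lower DNA methylation.

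The cells were infected with a pLKO.1 lentivirus carrying a hairpin against Lncenc1 (shLincenc1) or a control hairpin (shCtrl), with 2 libraries of each. All cells, control cells included, grew in 2i/LIF, which combines kinase inhibitors with the cytokine LIF, and were selected with puromycin at 1 ng/ml for 2 days. The protocol names the cell lines E14TG2a and R1 and 2 designed hairpins per gene, and the labels tie no library to a line or a hairpin. Nor do they state whether the 2 libraries of a hairpin are separate cultures. The p-values rest only on the spread between such libraries, judged over many genes together, and this spread may be technical.

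The authors deposited 1 comparison, as a mean over 4 libraries and a fold change, without saying which group is its numerator. Lncenc1 (ENSMUSG00000078952.8) itself separated the groups: its recovered levels were 2126 and 2121 normalized reads in 2 libraries, against 6400 and 7250 normalized reads in the other 2. In the authors' deposited table its log2 fold change was 1.68 ± 0.19 (SE), 3.21-fold, with a DESeq2 adjusted p of 2.67e-16. The groups are called Lncenc1-low (libraries L1 and L2) and Lncenc1-high (libraries H1 and H2) after this level, and the sources used here do not tie either name to a hairpin. Every fold change is printed as deposited, Lncenc1-high over Lncenc1-low, so a negative value means a higher level in the Lncenc1-low libraries. Levels per library are normalized reads, that is, read counts recovered from the deposited means and divided by the library's size factor. The recovered reads came to 11185267 in L1 and 10654772 in L2, against 26665542 in H1 and 11027806 in H2.

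Of the 35 tested members 6 (17.1%) were higher in the Lncenc1-low libraries at an adjusted p under 0.05 in the authors' deposited table (DESeq2 Wald test, called below), and 0 were higher in the Lncenc1-high libraries. Over all 14070 tested genes 1.53% were called: 1.02% higher in Lncenc1-low and 0.505% higher in Lncenc1-high. The 6 are Mael and Ddx4 of the piRNA pathway, Syce1, Sycp2 and Hormad1 of meiotic chromosomes, and Tex19.1. In refits without L2 or without H2, and by limma voom, 0 of these 6 stayed past the threshold, though all kept their direction. At an unadjusted DESeq2 p under 0.05 there were 11 members higher in Lncenc1-low and 1, Dpep3, higher in Lncenc1-high, where 5.28% and 3.54% of all tested genes passed in those directions. Both Lncenc1-low libraries lay above both Lncenc1-high libraries in 14 tested members, an order found in 20.7% of all tested genes with recovered reads. The 6 called members are among these 14, so no fit without 1 library could turn their direction, and limma voom used the same reads. Both Lncenc1-high libraries lay above both Lncenc1-low libraries in 5 members, against 20.6% of all genes, and the groups overlapped in 16. The samples are bulk cultures, in which fewer cells of a type and less RNA per cell cannot be told apart.

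**Figure D1:**
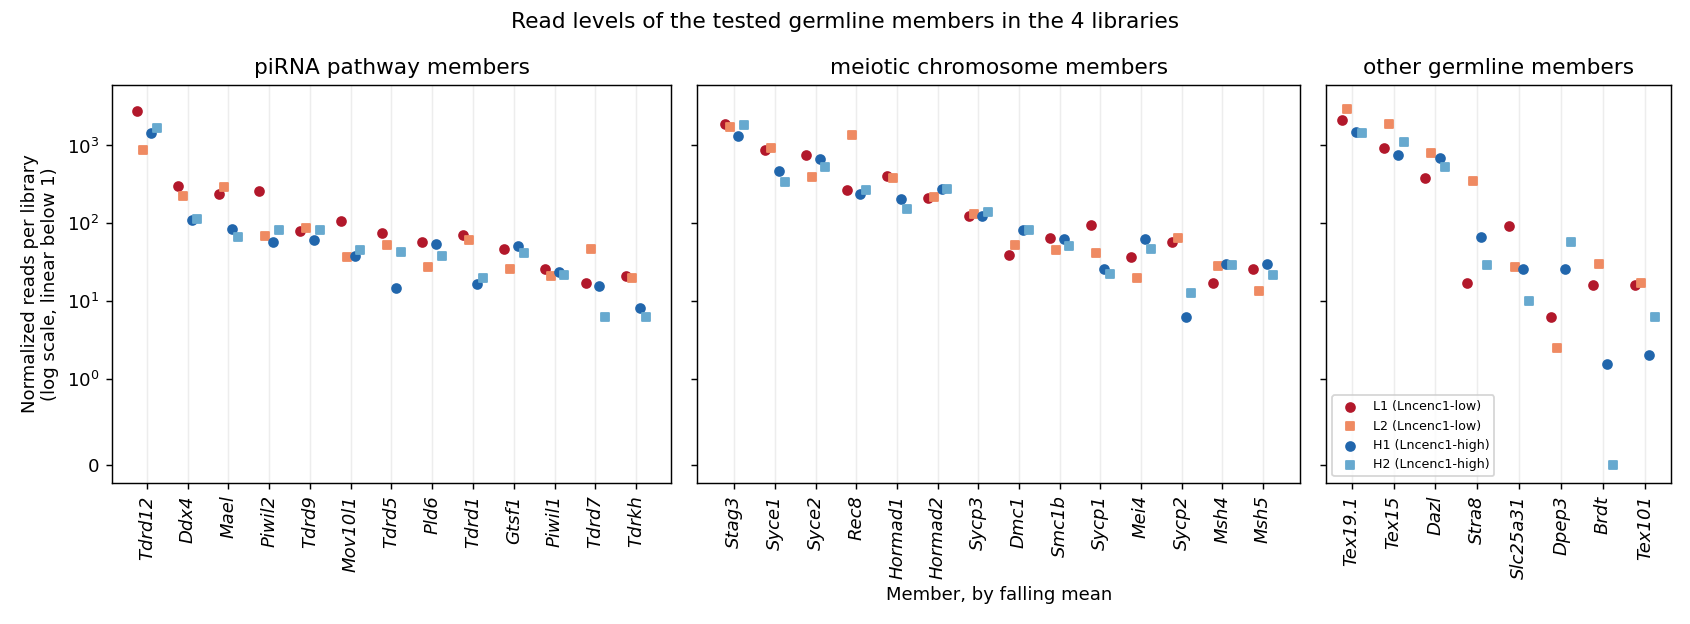
Normalized reads of the 35 tested members in libraries L1 and L2 (Lncenc1-low, red and orange) and H1 and H2 (Lncenc1-high, blue), on an axis that is logarithmic above 1 and linear below, 1 point per library. The members run from 2959 normalized reads (Tex19.1 in L2) to 0 (Brdt in H2), and the red and orange points of Mael, Ddx4, Syce1, Sycp2, Hormad1 and Tex19.1 lie above the blue ones.

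With all 4 libraries, most tested piRNA pathway members had a fold change on the side of Lncenc1-low and the meiotic chromosome members were split, a contrast in sign that was lost without L1. Of 13 tested piRNA members 11 had a negative log2 fold change in the authors' deposited table, with a median of -1.19 and a range of -1.87 to 0.35. Of 14 tested meiotic chromosome members 6 were negative and 8 positive, with a median of 0.03 and a range of -2.78 to 0.96. The 8 other germline members had a median of -1.24 and the widest range, -4.58 to 3.26, with 6 negative and 2 positive. Without L1, 7 of 13 piRNA members and 7 of 14 meiotic members were negative in the refit. Without L2, 13 of 13 piRNA members and 9 of 14 meiotic members were. The medians moved too: without L1 the piRNA median was -0.31, and without L2 the median of the other germline members was -0.26. Over all tested genes the median log2 fold change was -0.01, and 7126 of 14070 were negative. The difference between the piRNA and meiotic members was not tested, since genes are not replicates, and the calls do not show it: 2 of 13 piRNA members and 3 of 14 meiotic members were called, all higher in Lncenc1-low. Both Lncenc1-low libraries lay above both Lncenc1-high libraries in 6 piRNA members and the reverse order in 0, while the meiotic members gave 4 in each order.

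**Figure D2:**
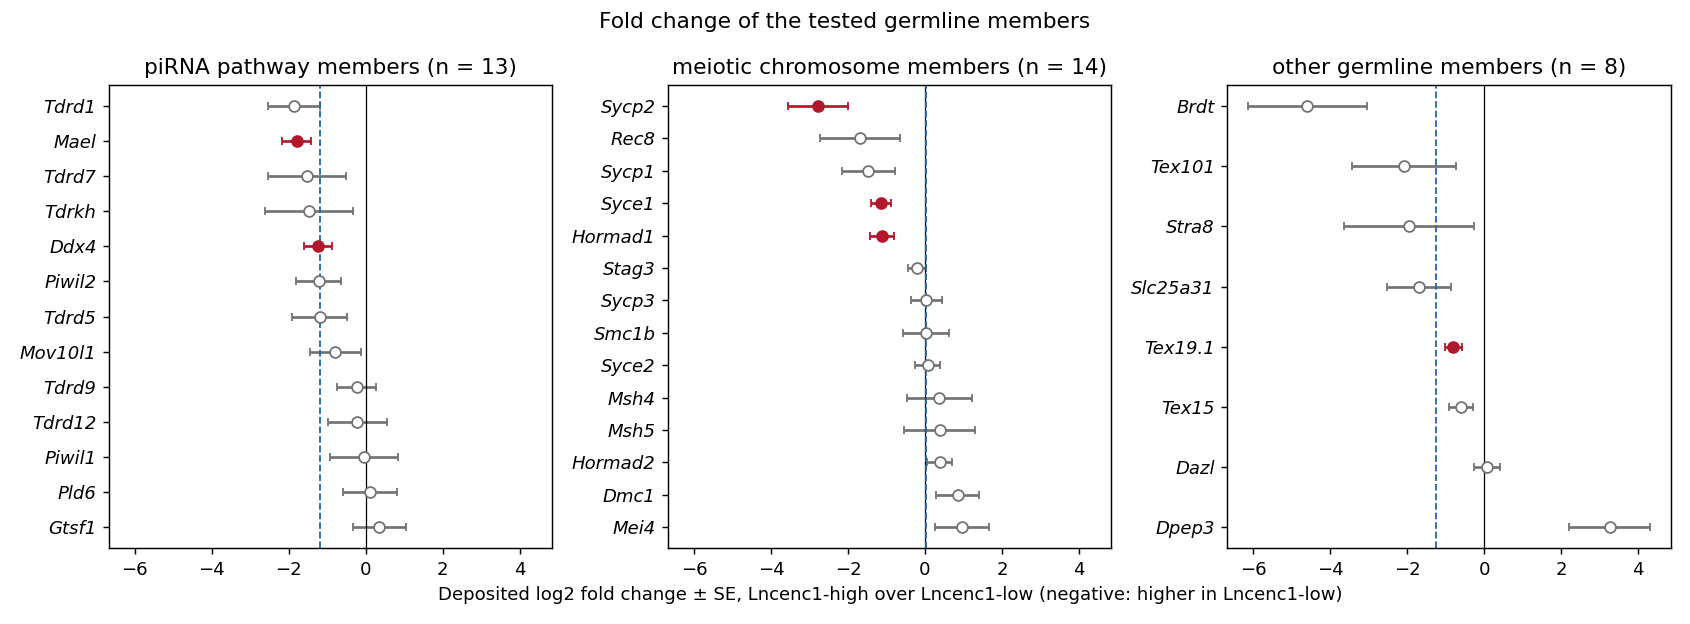
Deposited log2 fold change, Lncenc1-high over Lncenc1-low, with its standard error, for the tested members of each role group; filled red points have an adjusted p under 0.05 and the dashed line is the group's median. The median line lies at -1.19 for piRNA pathway members and at 0.03 for meiotic chromosome members, where 8 of 14 points lie above 0.

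Among the core proteins of piRNA granules, Mael (maelstrom, ENSMUSG00000040629.7), which is needed for transposon silencing in the male germline, was the member with the smallest adjusted p. Its level was 235 and 294 normalized reads in L1 and L2, against 84.7 and 66.5 normalized reads in H1 and H2. The means were 265 ± 41.6 in Lncenc1-low and 75.6 ± 12.9 in Lncenc1-high libraries (SD, n = 2 each), 3.47-fold apart by the deposited fold change. In the authors' deposited table the log2 fold change of Mael was -1.80 ± 0.38 (SE), with a DESeq2 adjusted p of 0.00076. Ddx4 (the vasa RNA helicase, ENSMUSG00000021758.12), a classical germ cell marker, had 301 and 227 normalized reads in L1 and L2, against 109 and 114 normalized reads in H1 and H2. Its groups were also apart, and the authors' deposited table gives a log2 fold change of -1.25 ± 0.36 (SE) and a DESeq2 adjusted p of 0.0422, close to the threshold.

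The PIWI proteins themselves, the Argonautes that carry piRNAs, were low or uneven. Piwil2 had 258 normalized reads in L1 and 68.0 in L2, against 57.0 in H1 and 82.8 in H2, so that only L1 stood above the Lncenc1-high libraries. For Piwil2 the authors' deposited table gives a log2 fold change of -1.23 ± 0.57 (SE), an unadjusted p of 0.0323 and a DESeq2 adjusted p of 0.476. Piwil1 had 25.9 and 21 normalized reads in L1 and L2, against 23.6 and 21.3 in H1 and H2, with a deposited log2 fold change of -0.06 ± 0.88 (SE). Piwil4 was barely sequenced, with 2 and 4 reads in L1 and L2 and 0 reads in both H1 and H2, and was not tested. The limit that a count of 0 allows, 3 reads, equals 3.70 and 3.71 normalized reads in L1 and L2, against 1.54 and 3.76 normalized reads in H1 and H2.

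The tudor-domain proteins, scaffolds that bind methylated PIWI proteins, spanned a wide range of levels, and none passed the threshold. Tdrd1 had 70.2 and 61.8 normalized reads in L1 and L2, against 16.4 and 20.1 normalized reads in H1 and H2. The groups of Tdrd1 were apart and 3.65-fold different. In the authors' deposited table the Tdrd1 value was -1.87 ± 0.68 (log2 fold change ± SE), with an unadjusted p of 0.00614 and a DESeq2 adjusted p of 0.196. Tdrd12, a helicase that works in secondary piRNA production, was the most abundant piRNA member per library, with 2764 and 880 normalized reads in L1 and L2, against 1465 and 1668 normalized reads in H1 and H2. Its Lncenc1-low libraries lay on either side of the Lncenc1-high ones, and the authors' deposited table gives a log2 fold change of -0.22 ± 0.77 (SE). Tdrd9, another helicase of the pathway, had 78.9 and 87.7 normalized reads in L1 and L2, against 60.6 and 81.5 in H1 and H2, with overlapping groups. Tdrd5 (75.2 and 53.1 in L1 and L2, against 14.9 and 42.7 in H1 and H2) and Tdrd7 (17.3 and 47.0, against 15.4 and 6.27) had groups in the same order as Tdrd1, with deposited log2 fold changes of -1.19 ± 0.72 and -1.53 ± 1.00 (SE). Tdrd6 was not tested: its reads numbered 4 and 0 in L1 and L2, against 1 and 0 in H1 and H2.

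The remaining piRNA members work on precursors, on the mitochondrial surface or as PIWI cofactors, and 0 of them passed the threshold of the DESeq2 test or an unadjusted p under 0.05. Mov10l1, the helicase that feeds precursors into the pathway, had 106 and 37.1 normalized reads in L1 and L2, against 37.5 and 45.2 normalized reads in H1 and H2. As for Piwil2 and Tdrd12, L1 was the highest library. Tdrkh, a mitochondrial tudor protein that helps to trim piRNAs, had 20.9 and 19.8 normalized reads in L1 and L2, against 8.21 and 6.27 in H1 and H2. The exons of Tdrkh overlap those of Oaz3 on the opposite strand over 2255 of 6142 bases, and since the strand setting used in counting was not given in the sources used here, reads of the pair cannot be told apart. Pld6, a mitochondrial nuclease of primary piRNA production, had 57.9 and 27.2 normalized reads in L1 and L2, against 53.4 and 37.6 in H1 and H2. Gtsf1, a zinc finger cofactor of PIWI proteins, had 46.8 and 26.0 normalized reads in L1 and L2, against 51.3 and 41.4 in H1 and H2. Pld6 and Gtsf1 were the pair of tested piRNA members with positive values in the authors' deposited table, at 0.11 ± 0.70 and 0.35 ± 0.70 (log2 fold change ± SE). Asz1, a mitochondrial scaffold, had 1 and 0 reads in L1 and L2, against 7 and 0 in H1 and H2, and was not tested.

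The synaptonemal complex joins paired chromosomes through a central element, transverse filaments and axial elements, and its members did not move together. Syce1 (ENSMUSG00000025480.4), a central element protein, had 885 and 918 normalized reads in L1 and L2, against 475 and 336 normalized reads in H1 and H2. With means of 902 ± 23.6 in Lncenc1-low and 406 ± 98.4 in Lncenc1-high libraries (SD, n = 2 each), the groups were 2.21-fold apart. For Syce1 the authors' deposited table gives a log2 fold change of -1.14 ± 0.26 (SE) and a DESeq2 adjusted p of 0.00258. Its partner Syce2 had 748 and 389 normalized reads in L1 and L2, against 668 and 524 in H1 and H2, an overlap of the groups with a deposited log2 fold change of 0.07 ± 0.32 (SE). Tex12, the third central element member listed, had 7 and 1 reads in L1 and L2, against 3 and 7 in H1 and H2, and was not tested.

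The transverse filament protein gene Sycp1 had 93.7 and 42.0 normalized reads in L1 and L2, against 26.2 and 22.6 normalized reads in H1 and H2. The groups did not overlap, and the authors' deposited table gives a log2 fold change of -1.47 ± 0.69 (SE), an unadjusted p of 0.0335 and a DESeq2 adjusted p of 0.485. Sycp2 and Sycp3 encode partner proteins of the axial element, and their values differed. Sycp2 (ENSMUSG00000060445.10) had 57.9 and 65.5 normalized reads in L1 and L2, against 6.16 and 12.5 normalized reads in H1 and H2. These are 47 and 53 reads in L1 and L2, against 12 and 10 reads in H1 and H2, so the Sycp2 fold rests on few reads. The authors' deposited table gives Sycp2 a log2 fold change of -2.78 ± 0.78 (SE), 6.89-fold, and a DESeq2 adjusted p of 0.0323. Sycp3 had 124 and 133 normalized reads in L1 and L2, against 124 and 141 in H1 and H2, and its deposited log2 fold change was 0.03 ± 0.41 (SE). Exons of Sycp3 overlap Chpt1 on the opposite strand over 660 of 1264 bases, so reads of this pair cannot be told apart unless the counting used strand.

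HORMA-domain proteins sit on unpaired chromosome axes and signal whether homologues have met. Hormad1 (ENSMUSG00000028109.13) had 401 and 378 normalized reads in L1 and L2, against 205 and 153 normalized reads in H1 and H2. Hormad1 was 2.16-fold higher in Lncenc1-low, with a log2 fold change of -1.11 ± 0.32 (SE) and a DESeq2 adjusted p of 0.0343 in the authors' deposited table. Its paralogue Hormad2 had the opposite order, with 208 and 215 normalized reads in L1 and L2, against 278 and 273 in H1 and H2. The authors' deposited table gives Hormad2 a log2 fold change of 0.38 ± 0.32 (SE) and a DESeq2 adjusted p of 0.905, so this difference was not called. The libraries of each group lay close together, with means of 212 ± 4.79 in Lncenc1-low and 276 ± 3.37 in Lncenc1-high (SD, n = 2 each).

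Meiotic cohesin holds sister chromatids together, and 0 of its 3 listed subunits were called or had an unadjusted DESeq2 p under 0.05. Stag3 was the most abundant meiotic member in normalized reads, with 1905 and 1752 in L1 and L2, against 1337 and 1839 in H1 and H2. Smc1b had 65.3 and 45.7 normalized reads in L1 and L2, against 62.1 and 51.4 in H1 and H2. Both sets of values overlapped between the groups. Rec8, the kleisin subunit, had 269 normalized reads in L1 and 1367 in L2, against 240 in H1 and 270 in H2. Only L2 was high, and although the log2 fold change of Rec8 in the authors' deposited table was -1.68 ± 1.04 (SE), its DESeq2 adjusted p was 0.739.

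The 4 tested recombination genes had positive fold changes, and 0 of them were called or had an unadjusted DESeq2 p under 0.05. Dmc1, the meiotic recombinase, had 39.4 and 51.9 normalized reads in L1 and L2, against 82.1 and 82.8 in H1 and H2. Mei4, which is needed for break formation, had 37.0 and 19.8 normalized reads in L1 and L2, against 63.7 and 46.4 in H1 and H2. Both Lncenc1-high libraries lay above both Lncenc1-low libraries in these genes, and the authors' deposited table gives log2 fold changes of 0.85 ± 0.56 and 0.96 ± 0.71 (SE), with DESeq2 adjusted p of 0.779 and 0.839. Msh4 (17.3 and 28.4 in L1 and L2, against 30.3 and 28.9 in H1 and H2) and Msh5 (25.9 and 13.6, against 29.8 and 21.3), whose proteins stabilise recombination intermediates, had deposited log2 fold changes of 0.37 ± 0.84 and 0.38 ± 0.92 (SE). Spo11, the enzyme that makes the breaks, had 1 and 0 reads in L1 and L2, against 3 and 3 in H1 and H2. Mei1, a further break factor, had 1 and 4 reads in L1 and L2, against 19 and 2 in H1 and H2. Neither was tested, and a difference was not detectable at this depth.

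Among the other germline members, Tex19.1 (ENSMUSG00000039329.8), which restrains transposons in germ cells, placenta and embryonic stem cells, was called. Its level was 2123 and 2959 normalized reads in L1 and L2, against 1471 and 1459 normalized reads in H1 and H2. The authors' deposited table gives Tex19.1 a log2 fold change of -0.79 ± 0.22 (SE), 1.73-fold, and a DESeq2 adjusted p of 0.0291. The neighbouring paralogue Tex19.2, with 71.5 and 45.7 normalized reads in L1 and L2, against 39.5 and 22.6 in H1 and H2, is similar in sequence, so reads may be split between the pair and the Tex19.1 value is uncertain to that extent. Dazl, an RNA-binding translational regulator of germ cells, had 380 and 790 normalized reads in L1 and L2, against 700 and 528 in H1 and H2. Tex15, which acts in piRNA-directed silencing, had 919 and 1875 normalized reads in L1 and L2, against 756 and 1095 in H1 and H2. In both genes L2 was the highest library and the groups overlapped, with deposited log2 fold changes of 0.07 ± 0.33 for Dazl and -0.60 ± 0.31 for Tex15 (SE).

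Stra8, induced by retinoic acid at meiotic entry, had the widest gap within a group among the members whose mean reached 50, with 17.3 normalized reads in L1 and 350 in L2, against 65.7 in H1 and 28.9 in H2. The authors' deposited table gives Stra8 a log2 fold change of -1.95 ± 1.68 (SE) and a DESeq2 adjusted p of 0.923. Slc25a31, a testis ADP/ATP carrier, had 91.2 and 27.2 normalized reads in L1 and L2, against 25.7 and 10.04 in H1 and H2, and Tex101, a sperm surface protein, had 16.0 and 17.3 in L1 and L2, against 2.05 and 6.27 in H1 and H2. The groups did not overlap in either gene, and the authors' deposited table gives log2 fold changes of -1.69 ± 0.83 (unadjusted DESeq2 p of 0.041) and -2.07 ± 1.36 (SE).

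Brdt and Dpep3 stood at the opposite ends of the range and both rest on few reads. Brdt, a bromodomain protein of the testis, had 13 and 24 reads in L1 and L2, against 3 and 0 in H1 and H2. Corrected for size factors this is a ratio of 20.9 in Lncenc1-low over Lncenc1-high, with an exact 95% interval of 6.61 to 106 that covers counting error only. The authors' deposited table gives Brdt a log2 fold change of -4.58 ± 1.56 (SE) and a DESeq2 adjusted p of 0.133. Dpep3, a membrane-bound dipeptidase of the testis, had 5 and 2 reads in L1 and L2, against 50 and 46 in H1 and H2. It is the member with the largest positive log2 fold change in the authors' deposited table, 3.26 ± 1.06 (SE), and its DESeq2 adjusted p of 0.0995 missed the threshold.

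Levels of different genes were compared per kilobase of exon (normalized reads per kb, exon lengths of the reference annotation). Tex19.1 was the highest member, at 1357 per kb in Lncenc1-low and 783 per kb in Lncenc1-high libraries, and Syce1 was at 617 per kb in Lncenc1-low and 278 per kb in Lncenc1-high. Syce1 was second in Lncenc1-low, while Tdrd12 at 361 per kb and Syce2 at 303 per kb lay above it in Lncenc1-high. Mael stood at 153 per kb in Lncenc1-low and 43.6 per kb in Lncenc1-high, and Ddx4 at 87.6 and 37.0 per kb in these groups. Sycp2 was the lowest of the called members, at 10.3 per kb in Lncenc1-low and 1.57 per kb in Lncenc1-high. On this scale Lncenc1 was at 643 per kb in Lncenc1-low and 2067 per kb in Lncenc1-high libraries.

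The spread within each group was uneven across members. Of the 19 tested members whose mean reached 50 normalized reads, 7 differed at least 2-fold between L1 and L2, where 9.08% of all tested genes at that mean did. Between H1 and H2, 1 member did, Stra8, where 1.65% of all genes did. The 3 with more in L1 were all piRNA pathway members, Piwil2, Tdrd12 and Mov10l1. The 4 with more in L2 were Rec8, Stra8, Tex15 and Dazl. The median ratio of the larger to the smaller library was 1.39 for members in Lncenc1-low, against 1.22 for all tested genes, and 1.27 in Lncenc1-high, against 1.12. Mael, Ddx4, Syce1, Hormad1 and Tex19.1 lay within 2-fold between the libraries of each group, and Sycp2 had a mean under 50. The labels do not say whether L1 and L2 differ in cell line or hairpin, and the part of either was not tested.

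**Figure D3:**
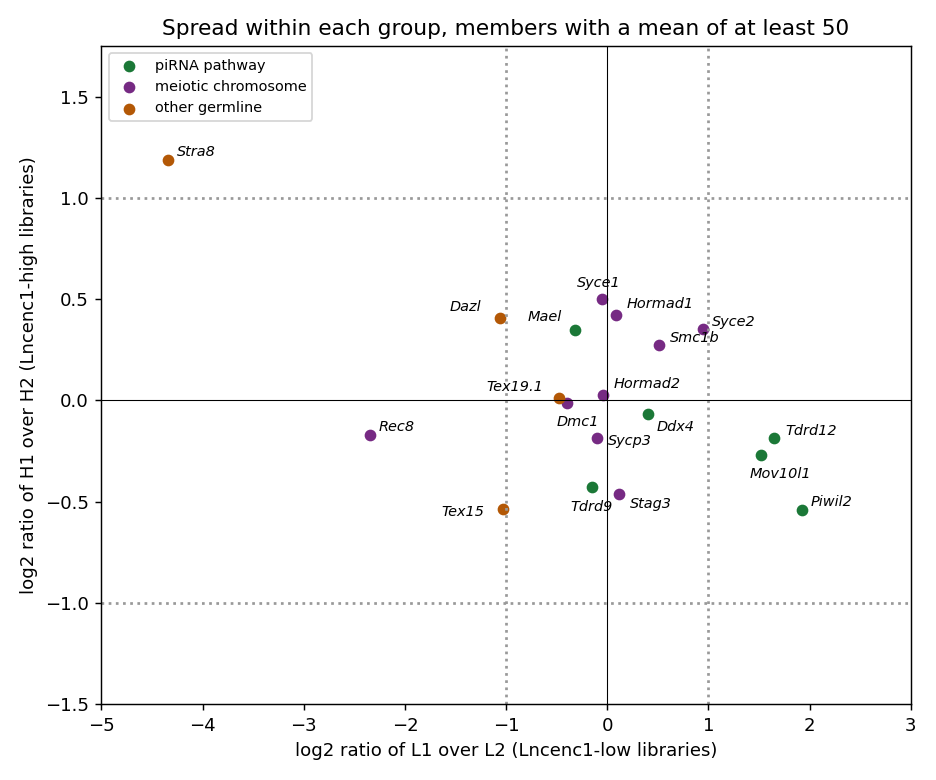
Log2 ratio of L1 over L2 (Lncenc1-low, horizontal axis) and of H1 over H2 (Lncenc1-high, vertical axis) for the 19 members whose mean reached 50 normalized reads, coloured by role; dotted lines mark a 2-fold difference. Piwil2, Tdrd12 and Mov10l1 lie to the right of the dotted lines, Stra8, Rec8, Dazl and Tex15 to the left.

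The promoters of 37 members were found among RefSeq promoter windows of build GRCm38.p6, each from 250 bases before to 50 after the gene's start; Piwil2, Spo11, Tdrd6 and Tex15 had no entry. Motifs of PRC1.6 components were searched on both strands: CACGTG, the E-box bound by MGA and MAX, and TTCCCGC, the E2F motif. They can share an end base. CACGTG was in 13 of 37 members (35.1%), against 7.24% of all 27025 genes with a window, and TTCCCGC in 9 of 37 (24.3%), against 4.66%. Both motifs stood in 6 members, against 0.463% of all genes, and the median number of CG pairs was 18 in members and 7 over all genes. Each motif itself holds a CG pair, and the genes compared were not matched for the number of CG pairs. The part of that number in the motif shares was not tested. By role, CACGTG was in 6 of 14 piRNA, 5 of 16 meiotic and 2 of 7 other members, and TTCCCGC in 2, 6 and 1 of them. Of the 6 called members 3 held CACGTG, and of 27 tested members not called 9 did (33.3%). A match describes letters only and is no binding site. To show the contrast in the values, 5 windows are printed in full. Mael, Ddx4 and Hormad1 are called members with CACGTG, and Ddx4 and Hormad1 hold TTCCCGC too. Sycp3 also has both motifs, at a log2 fold change of 0.03. Syce1 is a called member with neither, as are Sycp2 and Tex19.1, whose windows are not printed. Capitals mark the motifs, which may lie on either strand, each window is read 5′ to 3′ on the gene's strand, and the RefSeq positions are chr1:166238695-166238994 (minus strand) for Mael, chr13:112652261-112652560 (minus) for Ddx4, chr3:95559427-95559726 (plus) for Hormad1, chr10:88459337-88459636 (plus) for Sycp3 and chr7:140787805-140788104 (minus) for Syce1.
Mael: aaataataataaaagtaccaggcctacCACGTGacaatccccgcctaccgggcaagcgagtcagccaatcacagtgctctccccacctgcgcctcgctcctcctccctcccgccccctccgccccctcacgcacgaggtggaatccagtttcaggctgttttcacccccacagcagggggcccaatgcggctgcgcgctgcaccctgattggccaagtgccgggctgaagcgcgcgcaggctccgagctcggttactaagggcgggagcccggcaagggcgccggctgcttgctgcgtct
Ddx4: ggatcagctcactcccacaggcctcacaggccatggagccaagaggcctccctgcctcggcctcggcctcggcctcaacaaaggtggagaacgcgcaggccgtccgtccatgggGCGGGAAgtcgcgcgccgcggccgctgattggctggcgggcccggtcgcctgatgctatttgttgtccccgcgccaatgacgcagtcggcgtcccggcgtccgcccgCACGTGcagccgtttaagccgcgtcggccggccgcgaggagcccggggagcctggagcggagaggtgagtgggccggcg
Hormad1: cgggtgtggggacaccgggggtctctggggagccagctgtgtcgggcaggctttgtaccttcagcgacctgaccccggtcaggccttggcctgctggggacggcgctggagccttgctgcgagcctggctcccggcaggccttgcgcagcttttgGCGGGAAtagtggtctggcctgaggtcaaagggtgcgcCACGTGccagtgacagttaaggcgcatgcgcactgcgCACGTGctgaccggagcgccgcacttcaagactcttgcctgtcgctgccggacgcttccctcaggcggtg
Sycp3: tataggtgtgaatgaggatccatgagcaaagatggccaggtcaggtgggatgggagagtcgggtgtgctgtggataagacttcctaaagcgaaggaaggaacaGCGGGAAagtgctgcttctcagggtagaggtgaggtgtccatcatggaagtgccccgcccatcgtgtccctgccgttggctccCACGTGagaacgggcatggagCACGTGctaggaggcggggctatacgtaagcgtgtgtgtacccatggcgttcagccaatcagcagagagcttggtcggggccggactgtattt
Syce1: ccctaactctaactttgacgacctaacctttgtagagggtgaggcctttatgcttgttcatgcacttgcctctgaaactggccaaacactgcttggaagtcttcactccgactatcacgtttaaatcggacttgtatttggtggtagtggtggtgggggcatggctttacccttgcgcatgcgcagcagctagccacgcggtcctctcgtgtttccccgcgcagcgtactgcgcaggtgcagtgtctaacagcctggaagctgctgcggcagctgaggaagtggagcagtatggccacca

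Genes around the members were read from lists chosen with earlier results known. Of 30 genes around germline repression (PRC1.6, DNA methylation and TET enzymes), all tested, 1 was called. It was Tet2, a TET enzyme that oxidises methylated cytosine, and 0 of the PRC1.6 and DNA methylation genes were called. Tet2 had 1989 and 2087 normalized reads in L1 and L2, against 4381 and 3339 in H1 and H2, and a log2 fold change of 0.92 ± 0.21 (SE) with a DESeq2 adjusted p of 0.00215 in the authors' deposited table. At an unadjusted DESeq2 p under 0.05 there were 2 higher in Lncenc1-low, Dnmt3b and Setdb1, and 1 higher in Lncenc1-high, Tet2. The list's median log2 fold change in the authors' deposited table was 0.02. By limma voom 0 genes of this list were called and 9 had an unadjusted p under 0.05. The share of all genes at that unadjusted limma voom p was not worked out. Such counts, here and for the lists below, therefore cannot be called an excess. Dnmt3l, a cofactor of the de novo methyltransferases, had 285 and 1620 normalized reads in L1 and L2, against 254 and 369 in H1 and H2; it was chosen after its values were seen because L2 stood apart there as it did for Rec8 and Stra8. Of 14 tested further piRNA genes 0 were called by DESeq2, 2 had an unadjusted p under 0.05, and limma voom called 0 (4 by unadjusted p under 0.05). The one with the smallest p was Gpat2, a mitochondrial protein of piRNA production, with 726 and 796 normalized reads in L1 and L2, against 458 and 401 in H1 and H2, and a DESeq2 adjusted p of 0.0552 in the authors' deposited table.

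Of 26 tested further meiosis genes 0 were called by DESeq2, 1 had an unadjusted p under 0.05, and limma voom called 0, with 0 at an unadjusted p under 0.05. That gene was Tex11, a meiotic crossover factor, with 224 and 119 normalized reads in L1 and L2, against 104 and 79.0 in H1 and H2; the median log2 fold change of the list was 0.12 in the authors' deposited table. Of 10 primordial germ cell genes 0 were called by DESeq2, 2 had an unadjusted p under 0.05, and limma voom called 0, with 1 at an unadjusted p under 0.05. Tfap2c, a transcription factor of germ cell specification, had the smallest p, with 810 and 670 normalized reads in L1 and L2, against 594 and 299 in H1 and H2, and a DESeq2 adjusted p of 0.418 in the authors' deposited table.

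Markers of other cell types were summed per library beside these results. The 9 naive embryonic stem cell markers summed to 61611 and 58287 normalized reads in L1 and L2, against 72288 and 68430 in H1 and H2. By the deposited fold change 8 of the 9 were higher in Lncenc1-high and 1, Dppa3, in Lncenc1-low. In 7 both Lncenc1-high libraries lay above both Lncenc1-low libraries, an order found in 20.6% of all tested genes. Of the 9, DESeq2 called 0, and at an unadjusted p under 0.05 there were 1 higher in Lncenc1-low and 2 higher in Lncenc1-high. The 6 markers of 2-cell-like cells, a small fraction of stem cell cultures that resembles the early embryo, summed to 21715 and 12694 in L1 and L2, against 15228 and 8217 in H1 and H2. Most of this came from the related genes Zscan4c, Zscan4f and Zscan4d. All 6 were higher in Lncenc1-low by the deposited fold change, with 0 called by DESeq2 and 2 at an unadjusted p under 0.05. The groups overlapped in 4 of the 6. In the other 2, Tdpoz4 and Sp110, both Lncenc1-low libraries lay above both Lncenc1-high libraries, an order found in 20.7% of all tested genes. Fibroblast markers, 5 of 5 in the table, summed to 375 and 222 in L1 and L2, against 161 and 137 in H1 and H2, and of the 3 tested 0 were called by DESeq2 and 1 had an unadjusted p under 0.05. That sum was mostly Fbn1, with 324 and 174 in L1 and L2, against 140 and 110.4 in H1 and H2, while Col1a1, Col1a2 and Col3a1 were low and overlapped between the groups. Thy1 was low too, with 40.7 and 18.5 in L1 and L2, against 10.3 and 12.5 in H1 and H2, and its groups did not overlap. The 3 tested, Fbn1, Thy1 and Col1a2, all had negative deposited log2 fold changes. Of 8 spermatogonium and spermatocyte markers 6 were measured, and 4 of these (Nanos2, Sohlh1, Acr and Zbtb16) were at 0 in at least 1 library. Their sum, 1232 and 535 in L1 and L2 against 712 and 625 in H1 and H2, was mostly Sohlh2, with 1211 and 515, against 703 and 623. The 3 measured gonadal somatic markers summed to 45.6 and 14.8 in L1 and L2, against 45.7 and 66.5 in H1 and H2, and the 6 primordial germ cell markers to 4864 and 2137, against 4292 and 3217. The part of the naive, 2-cell-like and fibroblast marker levels in the members' differences was not tested.

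The 6 calls were refitted from the recovered reads without each library in turn, since 2 libraries a group leave little to estimate a spread from. All 6 kept their negative sign in every fit, which is no separate support for the direction, since each fit used the same recovered reads. Without 1 library the sign could not turn, because both Lncenc1-low libraries lay above both Lncenc1-high libraries in each of the 6. With all 4 libraries the refit called the same 6 members (0.933% of all genes in that direction), and with library totals in place of size factors it did too (1.15%). These totals were summed over the refitted genes only. They therefore lack the 30 genes not recovered, which hold 12.2% of the summed means. The refit with all 4 libraries uses the deposited standard errors, so it repeats the deposited test and is no separate support. With no filter on low means 5 were called (0.595%), and with means of at least 50 also 5 (1.12%). Without L1, Mael, Syce1 and Tex19.1 stayed past the threshold (0.772% of all genes), and without H1, Mael and Syce1 (0.265%). Without L2 or H2 none did, where 0.214% and 0.385% of all genes were called. The refits gave log2 fold changes of -1.99 to -1.63 for Mael, -1.42 to -0.92 for Syce1, -1.01 to -0.54 for Tex19.1, -3.32 to -2.30 for Sycp2, -1.35 to -0.93 for Hormad1 and -1.43 to -1.03 for Ddx4. By limma voom 0 of the 6 were called. At an unadjusted limma voom p under 0.05 there were 11 members higher in Lncenc1-low and 1 higher in Lncenc1-high. The share of all genes at that unadjusted p was not worked out, so the 11 cannot be called an excess. Only 0.0285% of all genes were called higher in Lncenc1-low by limma voom.

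**Figure D4:**
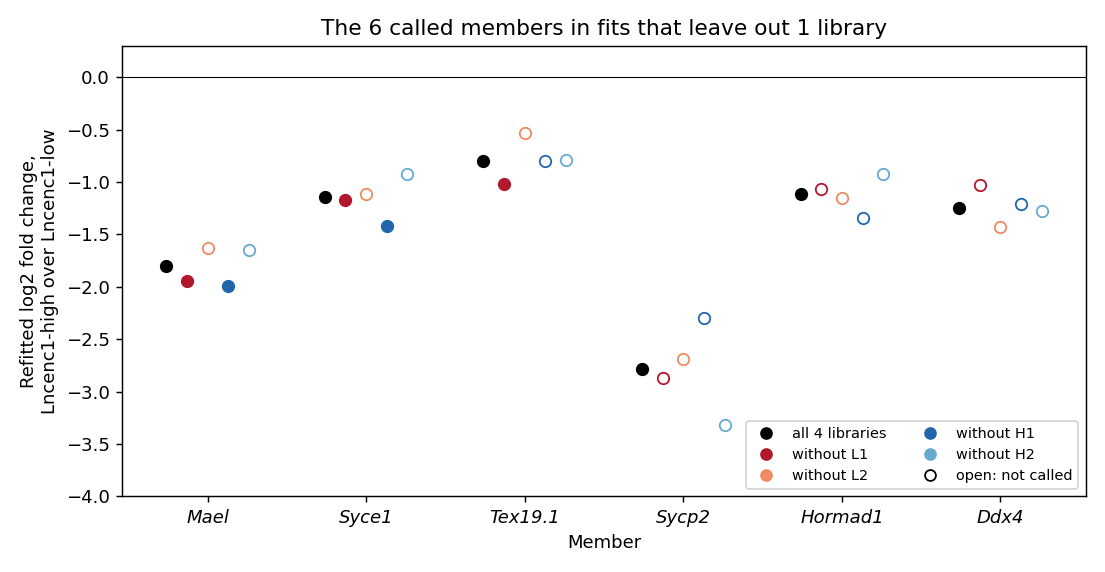
Refitted log2 fold change, Lncenc1-high over Lncenc1-low, of the 6 called members with all 4 libraries and without each in turn; filled points have an adjusted p under 0.05, open ones do not. All points lie below 0, between -3.32 and -0.54, and none without L2 or H2 is filled.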

How the data were processed

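Per the labels' protocols, ribosomal RNA was removed from total RNA and stranded libraries were made, 2 per hairpin. TopHat2, HTSeq, DESeq2 1.8.2 and the build mm9 are named in the submitters' processing notes; annotation and strand setting were not given in the sources used here. Per the file headers, the deposited table holds 1 row per gene: a mean normalized read count (a signal), a log2 fold change with its standard error (log2), a Wald statistic (a score, equal to the fold change over its error), and a p-value with its adjusted p-value, all computed by the authors. Of 19840 genes 14070 have an adjusted one, and 19707 matched a symbol by Ensembl identifier.

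Members and lists were chosen with earlier results of these data known. Named genes are all members, and from each list those called or, where none was, the 1 with the smallest p. Dnmt3l, Tex19.2, Dnmt3b and Setdb1 fall outside this rule and were chosen after their values were seen. Members of the cell type marker lists are named to describe a sum or a count. The main result is the authors' adjusted p under 0.05 (DESeq2 Wald test, Benjamini-Hochberg); a count test such as edgeR was not run, because the deposited values are not counts.

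Counts in each library were worked out from the means, since a mean is a sum of whole counts times fixed steps: combinations were matched to 15 significant digits and kept when their refit came within 0.00001 of the deposited fold change and the next was at least 10 times worse, or, for a single solution, within 0.001 or with few expected reads. This gave 19810 genes (99.8%); the 30 others hold 12.2% of the summed means. Size factors were 0.811 (L1), 0.809 (L2), 1.95 (H1) and 0.797 (H2). A simulated table of 18859 genes gave 18854 solutions, of which 18854 were right. They served to describe libraries and for alternatives: a Wald refit of a negative binomial model, with dispersions taken from the deposited standard errors (14035 genes), leaving out 1 library in turn, and limma 3.58.1 voom in R 4.3.3. On simulated data for this comparison of 14035 genes, that refit with all libraries found 10%, 30%, 70% and 70% of the genes given a 1.5-, 2-, 3- or 4-fold change, and called 7 that had none. The simulated counts were drawn with the same dispersions that the refit was given. Dispersions estimated from 2 libraries a group can do worse than this. Exon lengths and overlaps came from GENCODE M21 and promoter windows from RefSeq GRCm38.p6, both of another build than mm9 and matched by gene. Intervals and the floor of 3 reads cover counting error only.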

Additional observations from a re-analysis of the deposited data

How the results depend on the processing

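The direction of the 6 called members held under each alternative run. In the fits without 1 library it could not turn, since the groups of these 6 did not overlap. The refit with all libraries repeats the deposited fit, and the runs with another filter on means keep the deposited fold changes. Library totals and limma voom were run on the same recovered reads, so the direction kept there is no separate support. The count of members called higher in Lncenc1-low was 6 with the refit and with library totals, and 5 without a filter on low means (Ddx4 lost, adjusted p of 0.0595) or over means of at least 50 (Sycp2, with a mean of 35.5, not included). It was 0 with limma voom and 0 to 3 in the fits without 1 library, and 0 members were called higher in Lncenc1-high in every fit. Over all genes, 215 were called in the deposited table, 201 by the refit, 227 with library totals, 178 without a filter, 195 over means of at least 50, 6 by limma voom and 45 to 190 without 1 library. The median log2 fold change without 1 library lay between -1.36 and -0.31 for piRNA members (-0.31 without L1), -0.14 and 0.05 for meiotic members, and -1.05 and -0.26 for other members (-0.26 without L2). The log2 fold change of Piwil2, -1.23 in the deposited table, lay between -1.89 without L2 and 0.031 without L1. For the 12 members called or at an unadjusted p under 0.05, 74 values kept direction and side of the threshold, 26 lost the threshold and 1 turned. The 26 all fall on the 6 called members. The 74 include values of members not called that stayed uncalled, and do not measure how stable the calls are. Over all 35 tested members, 14 turned sign in at least 1 alternative, among them Stra8 (1.46 without L2) and Tdrd12 (0.83 without L1). The causes were not tested. The fits without 1 library assume that the lone library varies like the others, and had fewer libraries. No paired analysis was possible because the recovered libraries cannot be tied to replicate numbers. Depth limits the 6 untested members and Brdt, Dpep3 and Sycp2, which rest on few reads.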
